A study of Homo sapiens with 6 samples.

Results

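The genes described here are the ribosomal protein (RP) gene paralogs, 8 protein-coding genes that each resemble a canonical ribosomal protein gene (RPG): RPL22L1, RPL26L1, RPL7L1, RPL39L, RPS27L, RPL36AL, RPL3L and RPL10L. They were found by gene name, 8 of the 58174 gene identifiers counted, and 7 of them are among the 23026 genes of the normalized table, RPL10L being the exception. The family was chosen by gene name with the measured fold changes of RPGs in the same comparison already known, that of RPL22L1 among them, so the differences between conditions are a description for the paralogs and their partners. No p-value is given for them, and counts past a threshold stand beside the share of all genes and support nothing further. Each paralog was set beside the canonical gene it resembles (RPL22, RPL26, RPL7, RPL39, RPS27, RPL36A, RPL3 and RPL10).

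RNA came from T98G, an established glioblastoma cell line, infected in suspension with a lentivirus for a control short hairpin RNA (shControl) or for a hairpin against the kinase DYRK1A (shDYRK1A), with 3 libraries (1A, 1B and 1C) in each group. All cells of both groups were selected with puromycin and then left to recover without it, and were mixed with a fixed number of fly Kc167 cells as a spike-in. Human gene counts summed to between 33708297 and 42154438 per library. The labels do not say whether the libraries of a group came from separate infections, so the errors measure the spread between these libraries, which may be technical.

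A ribosome carries a single copy of nearly every RP, and most RPs are encoded by a single active gene. A few have a second, expressed copy that can take the place of the canonical protein in the ribosome or act outside it. RPL22L1 and RPL22 bind RNA and are known to act on the splicing and level of each other's transcripts, RPS27L is a small subunit paralog, RPL7L1 is an assembly factor of the large subunit, RPL3L is known from heart and skeletal muscle, and RPL10L and RPL39L from male germ cells. RPL36AL, RPL39L and RPL10L are tagged in the GENCODE annotation as retrogenes, copies made from a spliced transcript.

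The pairs differed widely in how much of the protein they share, from translations of the annotated coding sequences. RPL36AL differed from RPL36A at 1 of 106 aligned residues, RPL26L1 from RPL26 at 2 of 145, RPS27L from RPS27 at 3 of 84, RPL39L from RPL39 at 4 of 51 and RPL10L from RPL10 at 9 of 214. Protein identity was 77.9% for RPL3L and RPL3 and 73.8% for RPL22L1 and RPL22. RPL7L1 and RPL7 were the least alike, with 43.3% identity. The coding sequences were less alike than the proteins in 6 of the 8 pairs, for example 84.1% identical in bases for RPL26L1 and RPL26 and 77.8% for RPS27L and RPS27. The exceptions were RPL39L and RPL39 (94.8% of bases) and RPL7L1 and RPL7 (56.4%).

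Many canonical RPG transcripts begin with a C followed by an unbroken run of pyrimidines, the terminal oligopyrimidine (TOP) tract through which their translation is regulated. The bases around the start are shown because most paralogs and partners differ there. Each window runs from 10 bases before the RefSeq start to 20 after it (31 bases, GRCh38.p14), 5′ to 3′, with the pyrimidine run from the start in capitals.
RPL22L1 (chr3:170870175-170870205, minus strand): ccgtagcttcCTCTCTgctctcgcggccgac
RPL22 (chr1:6199575-6199605, minus strand): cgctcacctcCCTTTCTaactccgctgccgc
RPL26L1 (chr5:172958719-172958749, plus strand): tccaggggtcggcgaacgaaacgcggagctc
RPL26 (chr17:8383173-8383203, minus strand): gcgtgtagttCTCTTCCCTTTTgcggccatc
RPS27L (chr15:63157457-63157487, minus strand): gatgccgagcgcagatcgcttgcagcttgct
RPS27 (chr1:153990752-153990782, plus strand): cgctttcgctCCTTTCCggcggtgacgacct
RPL36AL (chr14:49620606-49620636, minus strand): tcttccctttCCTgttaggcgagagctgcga
RPL36A (chrX:101391001-101391031, plus strand): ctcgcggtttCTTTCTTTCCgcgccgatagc
RPL7L1 (chr6:42879606-42879636, plus strand): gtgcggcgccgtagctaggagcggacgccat
RPL39 (chrX:119791610-119791640, minus strand): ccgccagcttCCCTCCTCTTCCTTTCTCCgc

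Counted forward from the start base alone, a run of at least 5 pyrimidines beginning with C was found for RPL22L1 (6 bases) and for none of the starts of RPL26L1, RPL7L1, RPS27L, RPL36AL (3 bases) and RPL10L. Pyrimidines just before the start, as in the windows of RPL36AL and RPL22L1, were not counted. Among the partners such a run was found for RPL22 (7 bases), RPL26 (12), RPL39 (19), RPS27 (7), RPL36A (10) and 1 of the 3 starts of RPL10 (12), and RPL3 had a run of 4. Of all 35114 RefSeq promoters 4.07% had such a start, and of the 79 of canonical RPGs 60.76%. Of the 16 genes 13 were matched in the RefSeq table as searched. RPL39L and RPL3L were not found, and entries on chromosome 8, where RPL7 lies, were left out of the search.

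**Figure D1:**
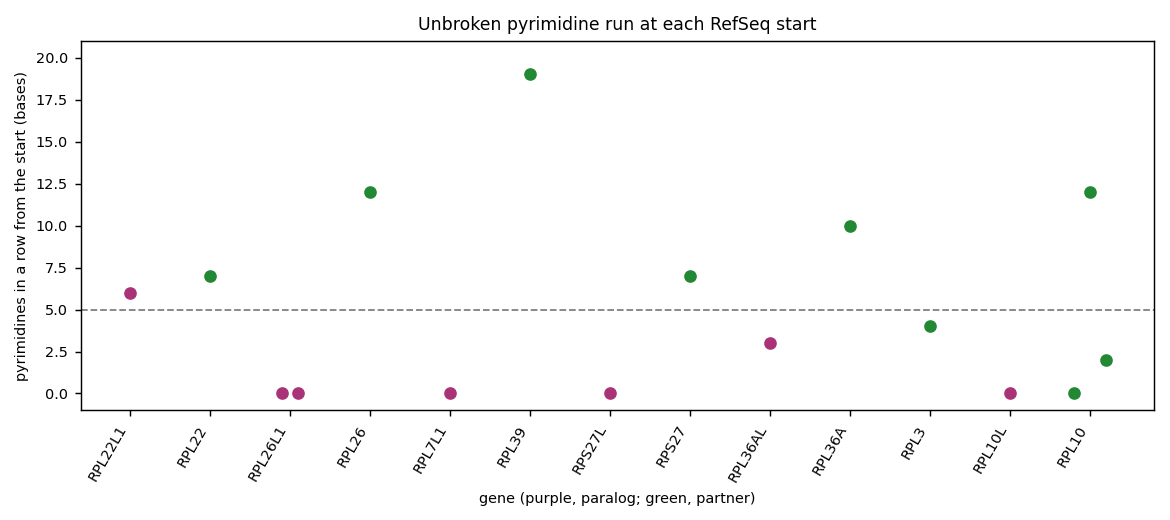
Length of the unbroken pyrimidine run at each RefSeq start of the paralogs (purple) and partners (green), in bases on the vertical axis, with a dashed line at 5 bases and 1 point per start. RPL22L1, with 6 bases, is the paralog above the line, and RPL39 has the longest run, 19 bases.

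The promoters of RPL22L1, of its partner RPL22, and of RPL26, which had the lowest fold change among the partners, are printed in full, 250 bases before the start and 50 from it. Capitals mark the palindrome TCTCGCGAGA, a motif earlier linked to DYRK1A at promoters, or its first 7 letters TCTCGCG, which lie inside it.
RPL22L1 (chr3:170870146-170870445, minus strand): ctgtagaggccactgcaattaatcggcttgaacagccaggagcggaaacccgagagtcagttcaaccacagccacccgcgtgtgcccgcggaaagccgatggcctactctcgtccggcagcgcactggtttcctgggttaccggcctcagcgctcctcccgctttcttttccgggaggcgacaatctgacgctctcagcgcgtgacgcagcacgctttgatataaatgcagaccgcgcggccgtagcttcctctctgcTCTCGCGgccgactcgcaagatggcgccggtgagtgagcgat
RPL22 (chr1:6199546-6199845, minus strand): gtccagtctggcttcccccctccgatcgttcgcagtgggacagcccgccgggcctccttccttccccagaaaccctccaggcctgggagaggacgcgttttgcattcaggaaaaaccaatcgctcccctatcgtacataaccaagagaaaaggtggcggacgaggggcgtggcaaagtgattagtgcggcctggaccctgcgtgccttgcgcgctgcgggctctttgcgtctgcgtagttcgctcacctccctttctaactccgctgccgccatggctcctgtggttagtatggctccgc
RPL26 (chr17:8383144-8383443, minus strand): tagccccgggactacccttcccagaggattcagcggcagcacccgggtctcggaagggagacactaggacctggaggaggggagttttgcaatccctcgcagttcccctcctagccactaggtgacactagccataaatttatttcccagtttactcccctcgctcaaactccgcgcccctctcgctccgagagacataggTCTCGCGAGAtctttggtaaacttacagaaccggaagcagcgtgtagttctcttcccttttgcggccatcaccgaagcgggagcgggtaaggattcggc

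Both strands were searched. RPL22L1 holds TCTCGCG 8 bases after the start base, and RPL26 holds the whole palindrome 49 bases before it. RPL10 holds TCTCGCG 54 bases before 1 of its starts and 234 before another. All other matched paralogs and partners hold neither, among them RPL22 and RPL36A. Whether these letters go with the fold changes was not tested. The palindrome is in 0.4243% of all promoters and in 6.329% of those of canonical RPGs, and TCTCGCG in 3.494% and 22.78%. The ETS-type word CCGGAAG, present in 10.26% of all promoters and 32.91% of those of canonical RPGs, begins 16 bases before the start of RPL7L1, 19 before that of RPS27L, 19 before that of RPL26, 57 before that of RPL3 and 247 before 1 start of RPL10. These are matches of letters in a window of 300 bases and were not tested as sites.

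Paralogs, partners and the processed pseudogenes of RPGs can share reads, so each principal transcript was cut into all words as long as a sequenced read, and these were looked up in the other GENCODE transcripts. No word was shared between a paralog and its own partner. RPL22L1, RPL39L, RPS27L, RPL36AL, RPL3L and RPL10L shared 0 words with any other gene, RPL26L1 shared 13.9% (with the pseudogene RPL26P30) and RPL7L1 4.61%. All 8 partners shared words with genes at other loci, from 4.69% of the words of RPL10 to 64.6% of those of RPL36A. On the same strand at the same locus, RPL26 shared 59.0% of its transcript with AC135178.2, an overlapping protein-coding model with 0 to 5 counts, and RPL36A 77.6% with RPL36A-HNRNPH2, which had 0 counts. RPL22 shared 11.1% of its transcript with a model that is not among the counted identifiers. No paralog transcript overlapped another gene on its strand, and the counts of RPL26 and RPL36A are uncertain for both reasons.

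**Figure D2:**
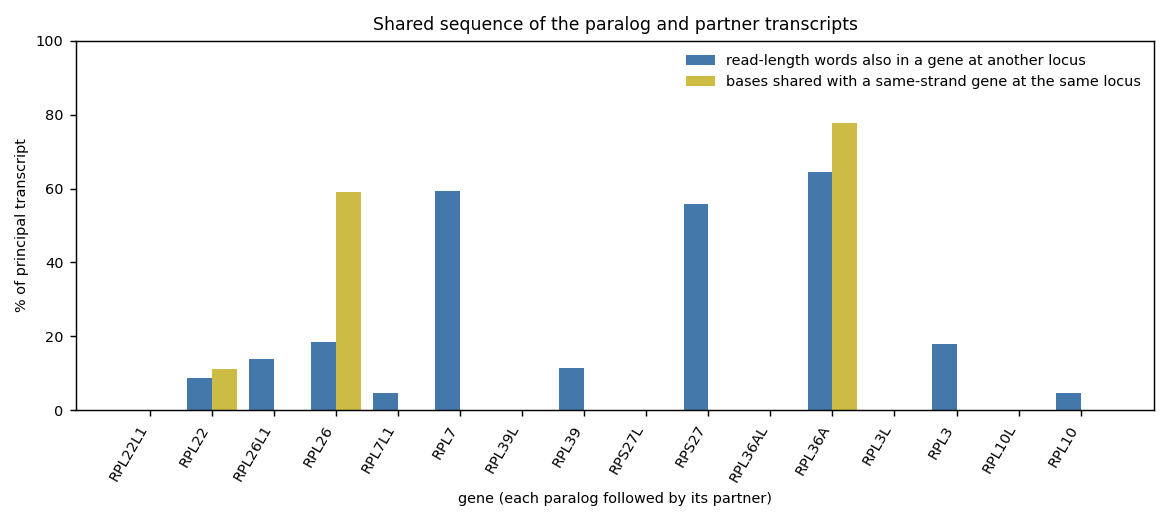
Share of each principal transcript (percent, vertical axis) whose words of read length also occur in a gene at another locus (blue) or whose bases lie in a same-strand gene at the same locus (yellow), for each paralog followed by its partner. The yellow bars of RPL26 (59.0%) and RPL36A (77.6%) are the tallest of that kind, and 6 paralogs have no bar.

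The hairpin's target was checked in every library. In the order 1A, 1B and 1C, which holds for all values by library, DYRK1A had 2227, 2234 and 1895 normalized counts in shControl and 1482, 1056 and 1285 in shDYRK1A, where a normalized count is the raw count divided by the library's spike-in size factor. The log2 fold change was -0.73 ± 0.15 (SE; edgeR quasi-likelihood test, adjusted p 5.33e-06), and 1149 of the 9697 genes tested had a lower value. Under TMM scaling over the human genes DYRK1A stood at -0.34 ± 0.059 (SE). The median gene was at -0.40 on the log2 scale under spike-in scaling and at 0.0019 under TMM. Fold changes of the paralogs and partners are therefore given below on both, and those of other genes mainly under spike-in scaling. Library shDYRK1A 1B stood further from the other libraries of its group than these did from each other, and results that it moves are given without it.

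Among the 5 paralogs past the expression filter (a mean above 10 CPM, the count scaled to the library total), RPL22L1 had the lowest fold change, known when the family was chosen. It stood at 48.4% of control, where its partner RPL22 stood at 73.0%, and every shDYRK1A library had fewer RPL22L1 counts per RPL22 count than any shControl library. RPL7L1, RPL36AL, RPS27L and RPL26L1 had log2 fold changes between -0.66 and -0.39. A gene was called where its log2 fold change lay beyond 0.7 in size and its adjusted p below 0.05. By this rule 14.3% of the 9697 genes tested were called lower and 0.278% higher, and of the 5 paralogs 1 (RPL22L1) and 0. At an adjusted p below 0.05 alone, 5 of 5 were lower, where 63.4% of all genes were lower and 1.08% higher. RPL26L1, RPS27L and RPL36AL no longer passed it without shControl 1A (log2 fold changes of -0.35, -0.33 and -0.38) or without shDYRK1A 1C (-0.34, -0.41 and -0.41), nor RPL26L1 without shControl 1B (-0.33). RPL39L, RPL3L and RPL10L did not pass the filter.

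**Figure D3:**
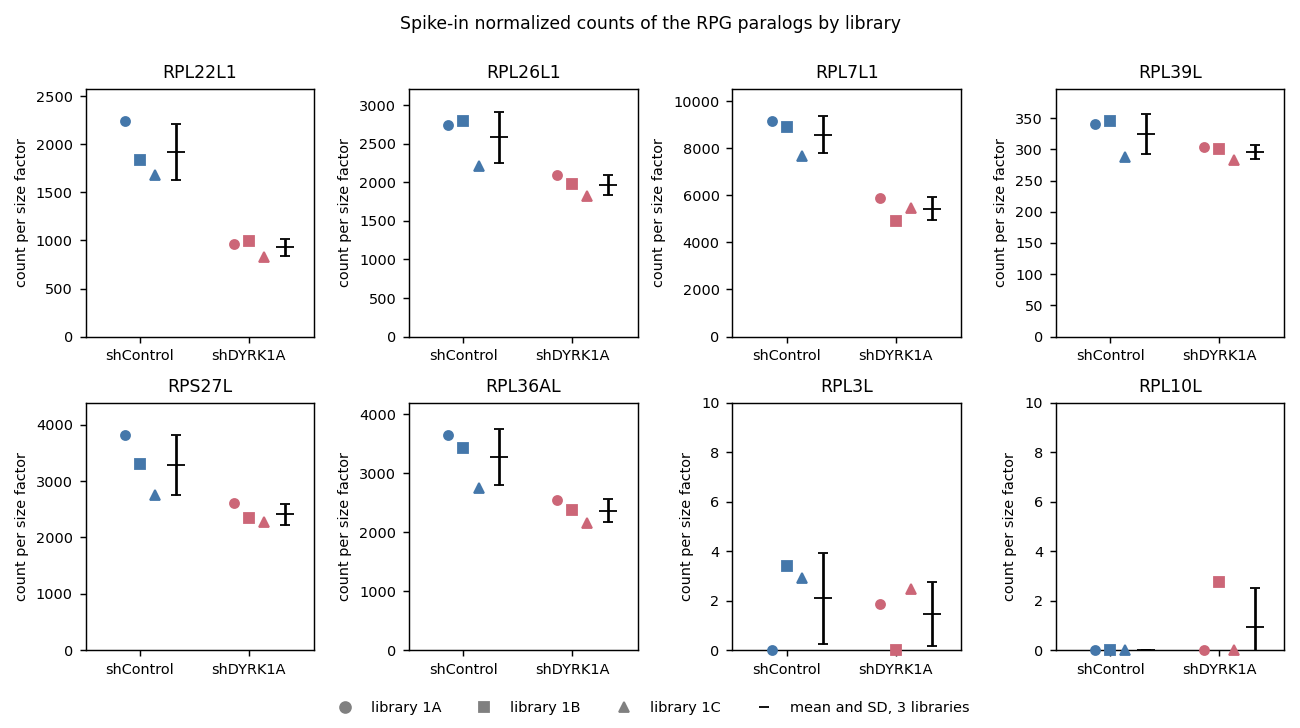
Spike-in normalized counts (vertical axes, from 0) of the 8 paralogs in each library, with the mean and SD of the 3 libraries in black. The groups do not overlap for RPL22L1, RPL26L1, RPL7L1, RPS27L and RPL36AL, overlap for RPL39L, and both RPL3L and RPL10L lie at or below 3 raw counts. Of all genes tested 65.2% had groups that did not overlap. In CPM, not shown, the groups of RPL26L1, RPS27L and RPL36AL overlap.

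RPL22L1 (ENSG00000163584, GRCh38 chromosome 3, 170864875 to 170870483, minus strand) had 2240, 1835 and 1680 normalized counts in shControl and 958, 999.7 and 829 in shDYRK1A. All 3 shDYRK1A libraries lay below the lowest shControl library. The group means were 1918 ± 289 and 929 ± 88.8 (SD, n = 3 each), a log2 fold change of -1.05 ± 0.15 (SE). Of the 9697 genes 244 had a lower value. Without the spike-in, RPL22L1 stood at 46.6, 38.4 and 41.9 CPM in shControl and 26.1, 32.0 and 24.9 CPM in shDYRK1A, again with no overlap. Its log2 fold change was -0.63 ± 0.10 under TMM, below zero but short of the fold threshold, and between -1.13 and -0.92 when each library was left out.

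RPL22, the canonical partner, had 18650, 17079 and 14594 normalized counts in shControl and 13121, 12364 and 11237 in shDYRK1A. The groups did not overlap, with a log2 fold change of -0.45 ± 0.13 (SE), close to the median gene, and -0.043 ± 0.066 under TMM. Pearson's r between RPL22L1 and RPL22 over the 6 libraries was 0.962, a description over libraries that share their size factors. Both genes had negative log2 fold changes under spike-in scaling, as had all 77 canonical RPGs tested, so the shared direction is not particular to the pair.

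The ratio of a paralog to its partner inside a library does not depend on any size factor. RPL22L1 had 12.0, 10.7 and 11.5 counts per 100 counts of RPL22 in shControl and 7.30, 8.09 and 7.38 in shDYRK1A. Every shDYRK1A library was below every shControl library. The means were 11.4 ± 0.638 and 7.59 ± 0.43 (SD, n = 3 each), a difference of -0.59 ± 0.066 (SE) on the log2 scale. Leaving out each library moved it between -0.64 and -0.55.

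The groups did not overlap for the ratio in any of the 6 pairs that could be formed. Of the 2926 pairs of canonical RPGs past the filter, which share genes with each other, the groups did not overlap in 61.2%. The median size of the difference among those pairs was 0.15 on the log2 scale, and 65 of them differed by as much as RPL22L1 and RPL22 or more. For the differences of RPL26L1 and RPL36AL, given below, the same counts were 35 and 55. RPL26, whose counts are uncertain, is among these canonical genes. The others past the filter had log2 fold changes from -0.77 (RPS3A) to -0.11 (FAU), so the largest differences are those of pairs with RPL26. These counts describe the scale of the differences, and nothing is read from them, as the family was chosen with fold changes known.

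**Figure D4:**
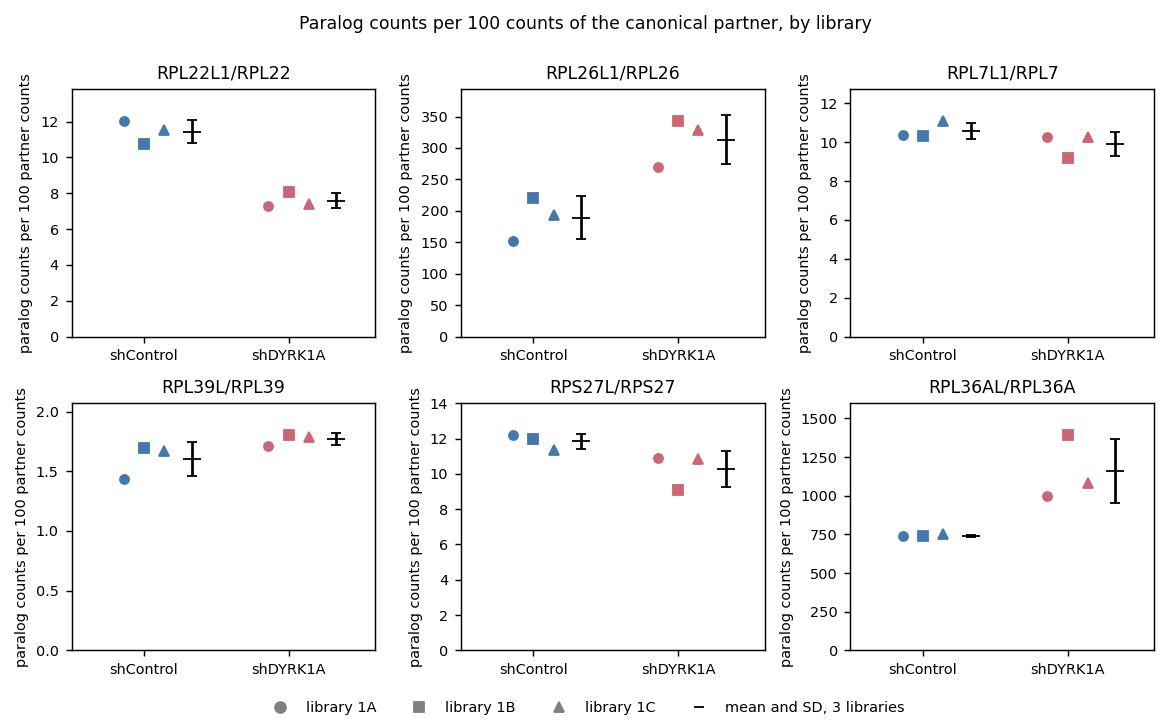
Counts of each paralog per 100 counts of its partner in each library (vertical axes, from 0), with the mean and SD of 3 libraries in black. The ratio of RPL22L1 to RPL22 is lower in shDYRK1A (7.59 against 11.4), those of RPL26L1, RPL36AL and, by less, RPL39L are higher, and those of RPL7L1 and RPS27L are slightly lower.

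RPL26L1 (ENSG00000037241, chromosome 5, 172958729 to 172969771, plus strand) encodes a large subunit protein that is nearly identical to RPL26. It had 2750, 2792 and 2206 normalized counts in shControl and 2094, 1979 and 1825 in shDYRK1A. The groups did not overlap, although the highest shDYRK1A library was near the lowest shControl library. The log2 fold change was -0.39 ± 0.14 (SE), at the median of all genes, and 0.018 ± 0.066 under TMM, so its sign turned with the scaling. In CPM the groups overlapped, at 55.0 to 58.4 in shControl and 54.8 to 63.4 in shDYRK1A.

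RPL26 moved more than its paralog. It had 1802, 1264 and 1144 normalized counts in shControl and 778, 578 and 557 in shDYRK1A, and the groups did not overlap. The log2 fold change was -1.14 ± 0.16 (SE), and -0.73 ± 0.12 under TMM. RPL26L1 had 153, 221 and 193 counts per 100 counts of RPL26 in shControl and 269, 342 and 328 in shDYRK1A, a difference of 0.74 ± 0.19 (SE) on the log2 scale. The counts of RPL26, 30.8 CPM on average in shControl, are uncertain, as given above. With them its fold change and both the height and the difference of this ratio are uncertain. Without shControl 1A the difference was 0.59 and without shDYRK1A 1B 0.67.

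RPL36AL (ENSG00000165502, chromosome 14, 49618519 to 49620685, minus strand) had 3646, 3434 and 2746 normalized counts in shControl and 2552, 2386 and 2165 in shDYRK1A. The groups did not overlap, and the log2 fold change was -0.47 ± 0.14 (SE), against -0.056 ± 0.070 under TMM. In CPM its groups overlapped. RPL36A, under the filter at 8.28 CPM, had 494, 464 and 366 normalized counts in shControl and 255, 171 and 200.2 in shDYRK1A. With edgeR's looser filter by expression its log2 fold change was -1.08 ± 0.18 (SE), and -0.71 ± 0.10 under TMM. Its groups did not overlap either.

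The log2 ratio of RPL36AL to RPL36A was 2.88, 2.89 and 2.91 in shControl and 3.32, 3.80 and 3.43 in shDYRK1A. The shControl libraries were close together and every shDYRK1A library was higher, by 0.63 ± 0.14 (SE) on the log2 scale, or 0.49 without shDYRK1A 1B. Since most of the RPL36A transcript is shared with other models, its fold change and this ratio are uncertain too. 

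RPL7L1 (ENSG00000146223, chromosome 6, 42879618 to 42889925, plus strand) had 9140, 8881 and 7667 normalized counts in shControl and 5898, 4922 and 5480.0 in shDYRK1A, with no overlap. The log2 fold change was -0.66 ± 0.13 (SE), and -0.25 ± 0.039 under TMM. In CPM the groups did not overlap either, at 186 to 191.1 in shControl and 158 to 165 in shDYRK1A.

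RPL7 differed by nearly as much, with a log2 fold change of -0.57 ± 0.12 (SE) from 81176 ± 10411 to 54806 ± 2267 normalized counts (SD, n = 3 each). Under TMM its log2 fold change was -0.15 ± 0.055. RPL7L1 had 10.4, 10.3 and 11.1 counts per 100 of RPL7 in shControl and 10.3, 9.20 and 10.2 in shDYRK1A. The groups separated by a narrow margin, with a difference of -0.097 ± 0.062 (SE) that was -0.044 without shDYRK1A 1B and -0.064 without shControl 1C. RPL7 shared 59.5% of its words with its pseudogenes.

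RPS27L (ENSG00000185088, chromosome 15, 63125872 to 63158021, minus strand) had 3813, 3294 and 2758 normalized counts in shControl and 2611, 2346 and 2269 in shDYRK1A. The groups did not overlap, and the log2 fold change was -0.45 ± 0.14 (SE), against -0.038 ± 0.068 under TMM. In CPM its groups overlapped. RPS27 had 31281, 27492 and 24352 normalized counts in shControl and 23916, 25809 and 20970.1 in shDYRK1A, and its groups overlapped. Its log2 fold change was -0.23 ± 0.13 (SE), and 0.18 ± 0.098 under TMM, so its sign turned with the scaling. The ratio was 12.2, 12.0 and 11.3 per 100 in shControl and 10.9, 9.09 and 10.8 in shDYRK1A, a difference of -0.21 ± 0.092 (SE) on the log2 scale that was -0.12 without shDYRK1A 1B. RPS27 shared 55.7% of its words with genes at other loci.

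RPL39L (ENSG00000163923, chromosome 3, 187120948 to 187180908, minus strand) was under the filter, at 7.90 CPM. It had 341, 345.0 and 288 normalized counts in shControl and 304, 301 and 283 in shDYRK1A, and the groups overlapped. In CPM it stood higher in each shDYRK1A library (8.30, 9.64 and 8.48) than in each shControl library (7.09, 7.21 and 7.18). The looser filter gave a log2 fold change of -0.13 ± 0.18 (SE) with the spike-in and 0.24 ± 0.10 under TMM, so its direction depended on the scaling. Of all genes tested, 65.2% had groups that did not overlap in normalized counts and 62.8% in CPM.

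RPL39 had 23755, 20343 and 17271 normalized counts in shControl and 17774, 16713 and 15783 in shDYRK1A, and its groups overlapped. Its log2 fold change was -0.29 ± 0.13 (SE), and 0.13 ± 0.071 under TMM. RPL39L had 1.43, 1.70 and 1.67 counts per 100 of RPL39 in shControl and 1.71, 1.80 and 1.79 in shDYRK1A. The difference was 0.15 ± 0.080 (SE) on the log2 scale and 0.071 without shControl 1A.

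RPL3L and RPL10L were not detected above the floor of 3 counts. RPL3L (chromosome 16, 1943974 to 1957606, minus strand) had 0, 3 and 3 raw counts in shControl and 2, 0 and 3 in shDYRK1A. RPL10L (chromosome 14, 46651010 to 46651821, minus strand) had 0 in 5 libraries and 3 in shDYRK1A 1B. A count of 0 allows up to 0.0712 to 0.0890 CPM in these libraries, for counting error only, and no fold is given. The partners had 77584 ± 7057 and 52684 ± 2166 normalized counts for RPL3 and 68285 ± 7383 and 47539 ± 2630 for RPL10 (SD, n = 3 each), and log2 fold changes of -0.56 ± 0.13 and -0.52 ± 0.13 (SE). Under TMM these were -0.15 ± 0.053 and -0.11 ± 0.056. In normalized counts the groups did not overlap for either partner, and in CPM those of RPL10 overlapped.

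**Figure D5:**
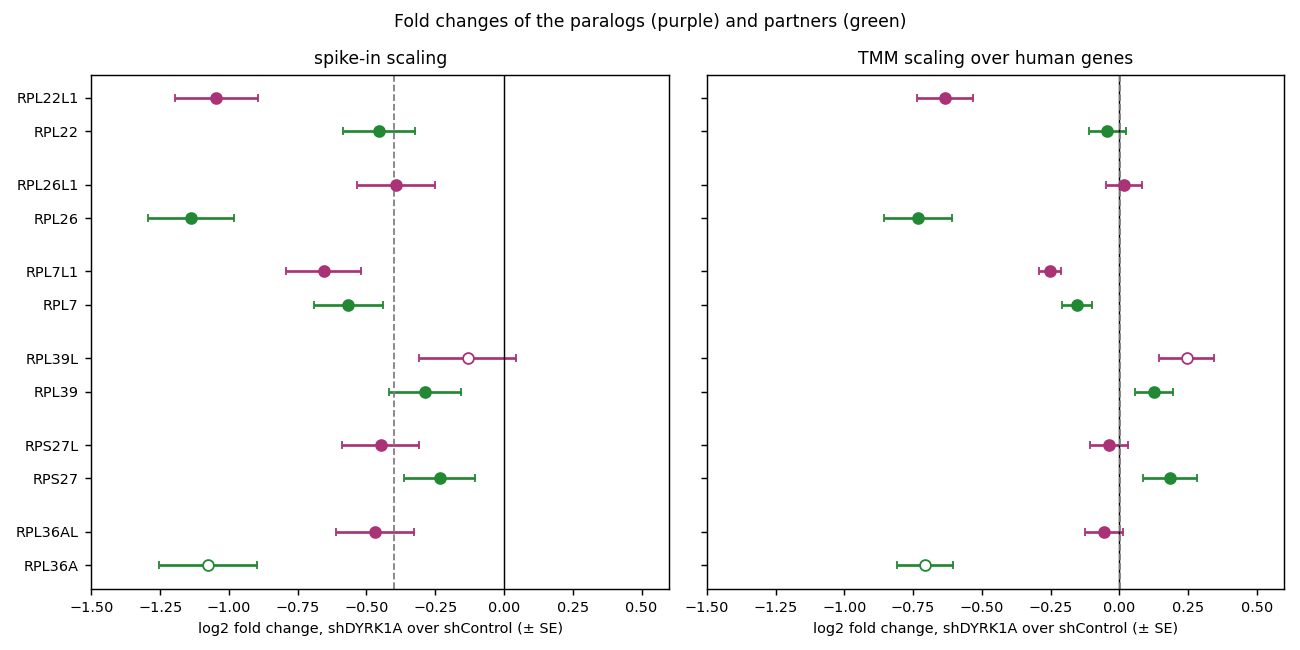
Log2 fold change (horizontal axis, shDYRK1A over shControl, bars ± SE) of 6 paralogs (purple) and their partners (green) under spike-in scaling and under TMM scaling. Dashed lines mark the median gene (-0.40 and 0.0019), open circles mark genes tested only with the looser filter, and RPL22L1, RPL26 and RPL36A lie furthest below the median in both panels.

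Levels can be compared between genes only per length, so normalized counts were divided by the exonic length of each gene in kilobases. In shControl the order by this level was RPL36AL with 4390.3 ± 631 (SD, n = 3), RPL26L1 with 2219 ± 281, RPL7L1 with 1097 ± 101, RPL22L1 with 825 ± 124, RPS27L with 360.3 ± 57.8 and RPL39L with 306 ± 29.9. RPS27L and RPL39L overlapped, and every other neighbouring pair in this order was separate. Divided by coding length, RPS27L led with 13049 ± 2093 ahead of RPL7L1 with 11193 ± 1028, so the order depended on the length used. By that length the libraries of RPS27L and RPL7L1 overlapped. RPL39L was the lowest of the 6 by either length.

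Per kilobase of exonic length, RPL22L1, RPL7L1, RPL39L and RPS27L stood below their partners in shControl, by log2 ratios of -2.12, -4.67, -4.96 and -6.22. RPL26L1 and RPL36AL stood above theirs, by 2.01 and 5.30, against partners with uncertain counts. In shControl RPL26 averaged 30.8 CPM and RPL36A 9.70, where the other partners averaged from 370 (RPL22) to 1787 (RPL7). Whether RPL26L1 and RPL36AL exceed their partners is therefore not settled by these counts. Per kilobase of coding sequence the 6 log2 ratios were -3.06, -3.28, -5.97, -3.08, 0.90 and 2.89 in the same order, with the same signs.

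The other RPGs gave the setting for these values. Of the 80 canonical RPGs, 77 passed the filter, 61 were lower at an adjusted p below 0.05 (edgeR, spike-in scaling) and 0 higher, with a median log2 fold change of -0.43 beside -0.40 for all genes. Under TMM 11 were lower and 8 higher, where 28.6% of all genes were lower and 27.3% higher, and their median was -0.013. Of the 5 tested paralogs 2, RPL22L1 and RPL7L1, were lower under TMM and 0 higher. The lowest canonical RPG was RPL26, whose counts are uncertain. The highest was FAU (-0.11 ± 0.14, SE), at 0.30 under TMM, which encodes a fusion of a ubiquitin-like protein with RPS30. Without shControl 1A 39 were lower, without shDYRK1A 1C 37 and without shDYRK1A 1B 57.

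RPL7L1 acts among the factors that build the large subunit, and 19 such assembly factors were listed, all of which passed the filter. All 19 were lower at an adjusted p below 0.05 (edgeR, spike-in scaling) beside 63.4% of all genes, with a median log2 fold change of -0.59. Under TMM 12 were lower and 0 higher, and without shDYRK1A 1B 17 were lower. The lowest was NOC3L, a nucleolar factor of large subunit maturation, at -0.86 ± 0.15 (SE), and the highest was EBNA1BP2, also known from that pathway, at -0.34 ± 0.13 (SE), which was 0.066 under TMM.

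MDM4, whose splicing RPL22L1 and RPL22 are known to affect, had a log2 fold change of -0.34 ± 0.15 (SE), and 0.059 under TMM.

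Markers of the labelled and of other cell types were read in the same libraries. Of 8 glioma and astrocyte markers VIM, CD44 and EGFR passed the filter, S100B had 0 counts in every library, SOX2 at most 2 and GFAP at most 4. The log2 fold change was lowest for VIM (-0.72 ± 0.13, SE) and highest for CD44 (-0.32 ± 0.13, SE, and 0.082 under TMM). The 8 summed to 3488 to 3641 CPM in shControl and 3269 to 3357 in shDYRK1A. Striated muscle markers (8 genes, the setting of RPL3L) summed to 0.0712 to 0.456 and 0.321 to 0.413 CPM, with MYH7, MYH6, TNNT2 and MYL1 at 0, and germ cell markers (7 genes, the setting of RPL10L) to 0.0971 to 0.177 and 0.0890 to 0.321 CPM, with PRM1 and PRM2 at 0.

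The other lists were also low. The 4 neuron markers summed to 10.4 to 11.7 CPM in shControl and 5.99 to 6.95 in shDYRK1A, mostly SNAP25, with STMN2 at 0. The 4 immune markers summed to 4.58 to 5.57 and 5.59 to 5.81 CPM, with CD3E at 0, and the 3 endothelial markers to 0.641 to 0.937 and 0.618 to 0.954 CPM. The glioma and astrocyte sum, the neuron sum and, narrowly, the immune sum separated the groups, and their part in the paralog values was not tested. In bulk RNA a lower level in every cell and the loss of the transcript from some cells cannot be told apart.

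The genes whose normalized counts followed each paralog most closely over the 6 libraries are named as a description, since all genes share the size factors. For RPL22L1 they were CES1P1, S100A4 and TMEM186 (Pearson's r 0.998, 0.995 and 0.995). For RPL26L1 they were GPX4, RPL8 and PIH1D1 (r 0.9997, 0.998 and 0.998), and for RPL7L1 USP7, STT3A and CNOT10 (r 0.9998, 0.9998 and 0.9997). For RPS27L they were WDR61, EVA1A and RASSF1, and for RPL36AL SOD1, AC093323.3 and RPL18, with r from 0.998 to 0.999. Between 3163 genes (RPL22L1) and 6305 genes (RPL7L1) had r above 0.9, so a high r sets no gene apart.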

How the data were processed

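Stranded, paired-end mRNA reads were processed by the authors, whose processing notes name STAR, DESeq2 and the builds hg38 and dm3. The authors deposited raw gene counts for each of 6 libraries and a table of size-factor normalized signal, each column being the counts divided by 1 constant per library derived from fly reads. A further deposited table holds the authors' fold changes and p-values and was not used. With those constants as size factors, raw counts entered the robust quasi-likelihood fit of edgeR 4.0.16 (R 4.3.3), over the 9697 genes with a mean above 10 CPM, with Benjamini-Hochberg adjustment. Standard errors are the fold change over the square root of F. Pair ratios were taken within libraries on raw counts. Transcripts and coordinates are from GENCODE v29 and promoters from RefSeq (GRCh38.p14). Summary lines of the counter (unmapped reads 8.44 to 15.6% of a library) were left out. The number of per-sample columns matching no sample was 0. The fit was tested on simulated data. All libraries differed beyond sampling noise. The members, lists and named-gene rule (all members and partners, DYRK1A, the lowest and highest tested gene of each list, the 3 genes most correlated with each member, and each member's nearest tested neighbours) were chosen with earlier results of these data known. A further list and a neighbouring gene that the rule names are not reported here. Other settings tried were median-of-ratios and TMM scaling, DESeq2 1.42.0, other filters and thresholds, the replicate block, other lengths and each library left out, and TMM with the looser filter and the transcript length were added after seeing the data.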

Additional observations from a re-analysis of the deposited data

How the results depend on the processing

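The number of paralogs called lower, 1 as reported, was 0 under TMM, median-of-ratios and TMM with the looser filter (RPL22L1 then missed the fold threshold), 5 at an adjusted p alone, and 1 to 2 when each library was left out, RPL7L1 being added without shControl 1C or shDYRK1A 1A. Canonical RPGs lower, 61 as reported, numbered 11 under TMM and median of ratios, 21 under TMM with the looser filter, 2 with the fold threshold and 37 to 76 with a library left out. Those higher, 0 as reported, numbered 8, 9 and 5 under TMM, median of ratios and TMM with the looser filter. The log2 fold change of RPL26L1 turned to 0.018 and 0.021 under TMM and median of ratios, and was -0.013 under TMM with the looser filter. In the same order, that of RPL39 turned to 0.13, 0.13 and 0.095, and that of RPS27 from -0.23 to 0.18, 0.19 and 0.15. By construction these scalings move the median gene from -0.40 to near 0. The replicate block gave 1 paralog and 62 canonical RPGs lower. A pair difference taken within replicate letters equals the difference of group means by arithmetic, so it could not change. Its SE went from 0.19 to 0.055 for RPL26L1 and from 0.066 to 0.092 for RPL22L1. Libraries of the same letter correlated by 0.15, 0.073 and 0.13 in their deviations and each library best with its own letter, a hint from the data only, and the letters were not taken to pair the libraries. DESeq2's Wald test gave 1 and 64. For the pair differences, leaving out a library gave -0.64 to -0.55 (RPL22L1), 0.59 to 0.86 (RPL26L1), -0.12 to -0.044 (RPL7L1), 0.071 to 0.19 (RPL39L), -0.25 to -0.12 (RPS27L) and 0.49 to 0.72 (RPL36AL), with no change of direction. Leaving libraries out was not run for the fold changes of RPL39L and RPL36A, which are under the filter. RPL3L and RPL10L are limited by depth.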

Other observations

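The nearest genes past the filter on either side of each paralog, leaving out genes that overlap it, were read as values. RPL36AL lies 110 bases from MGAT2, a Golgi glycosyltransferase, whose log2 fold change was -0.35 ± 0.15 (SE), and 3847 bases from LRR1 (-0.67 ± 0.16). RPL26L1 lies 6044 bases from ERGIC1 (-0.52 ± 0.13) and 13986 from ATP6V0E1 (-0.26 ± 0.13). RPL22L1 has no tested gene within 468040 bases, and SKIL, at that distance, had -0.73 ± 0.16 and PLD1, on the other side, -0.57 ± 0.16. RPS27L, whose span 1 further tested gene overlaps, lies between TPM1 (-0.94 ± 0.13), an actin-binding tropomyosin, and RAB8B (-0.81 ± 0.15). Both were lower than RPS27L itself at -0.45. RPL7L1 lies between TBCC (-0.51 ± 0.16) and CNPY3 (-0.34 ± 0.15), and RPL39L between ST6GAL1 (-0.56 ± 0.17) and MASP1 (-0.36 ± 0.16). The undetected RPL3L lies 648 bases from MSRB1 (-0.23 ± 0.15) and 1902 from NDUFB10 (-0.17 ± 0.14), which had 1259.7 ± 128 and 4249 ± 433 normalized counts in shControl (SD, n = 3). On its higher-coordinate side the nearest tested gene to RPL10L was RPS29 (-0.22 ± 0.14), 2919163 bases away.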
